A study of Gallus gallus with 5 samples.

Results

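The mitosis and G2/M genes are the genes whose products bring a cell into mitosis, build the spindle, hold and release the sister chromatids and divide the cell. They were taken as a list of 53 gene symbols, and a gene counted as measured when a probe carried a RefSeq transcript accession of that symbol. By this rule 32 of the 53 were read, on 74 probes, out of 5382 named genes and 43603 probes in all. The other 21, AURKA, AURKB, TTK, CENPE and PLK4 among them, had no probe named in this way and were not analysed here.

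RNA levels were read on 5 one-colour arrays of DNA oligonucleotides. Each array received the RNA of 1 culture of DT40 cells, a fast-growing B cell lymphoma line of the chicken that readily recombines introduced DNA at the matching locus. The lines were wild type (WT, labelled cl18), a line in which both isoforms of the histone variant H2A.Z were knocked out (DKO), and 3 lines made from the DKO, each of which stably expressed 1 protein. These are named after it: the H2A.Z.1 line, the 5KR-H2A.Z line and the H2A-H2A.Z line, of which the last 2 carry altered forms of H2A.Z. All 5 cultures, WT included, received tetracycline at 2 µg/ml for 72 hours to silence a repressible H2A.Z.1 transgene. By its title, the study asks about the N-terminal tail of the histone. Each line was 1 array, so the differences below stand without replicates and without p-values, and the labels do not say whether a line was 1 clone. The labels disagree for 1 array, which is the DKO by title and source name but the H2A.Z.1 line by description and genotype field. The name DKO used below follows the title.

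In vertebrate cells many, but not all, of the genes of this programme are switched on together in late S and G2 phase. B-MYB, the product of MYBL2, and FOXM1 act on them through a shared promoter complex, cyclins and CDK1 start mitosis, the Aurora and Polo kinases steer spindle and kinetochores, and the anaphase-promoting complex with CDC20 ends it. Where a transcript peaks in G2 and M, its level in a bulk culture carries the share of cells in those phases. Which of the listed transcripts do so in DT40 cells was not tested. More cells in a phase and more RNA per cell cannot be told apart in bulk RNA. H2A.Z is placed at promoters and in chromatin around centromeres in many eukaryotes.

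Levels are log2 values relative to the 75th percentile of the spots on the same array, and a difference is one such level minus another. The mutant lines shared 1 slide and the remaining 3 lines another, so slide and line cannot be told apart where a mutant line is set against a line of the other slide. Per array, 29137 to 30574 of 43803 spots stood well above background, with no saturated spot. Replicate spots of a probe on 1 array had a median SD between 0.048 and 0.064 (log2), and the scanner software gave an error of 0.14 (log2) for a single level of these genes. The targeted gene, H2AFZ (NM_001031374), had levels of 5.87 and 6.17 on its 2 probes in WT, against levels of -0.46 to 1.24 in the other 4 lines, 24.8-fold to 99.0-fold lower. The H2A.Z.1 line was 33.4-fold and 89.2-fold below WT on these probes and DKO 27.0-fold and 92.7-fold, so these probes show the H2A.Z.1 line about as low as DKO and do not settle the label of the DKO array. Of 12 B cell markers with a named probe, 11 or 12 were well above background on each array. Of 7 T cell markers 5 or 6 were well above background, CD3D with log2 levels of 6.04 to 6.38 and CD4 on no array. Myeloid markers gave 5 or 6 of 7 and fibroblast markers 2 to 4 of 7 (DCN and THY1 on no array). The part of these markers in the values below was not tested.

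None of the 32 mitosis and G2/M genes differed by 2-fold between any pair of lines compared. All 32 were well above background on all 5 arrays. The range of a gene over the 5 arrays ran from 0.16 for NDC80 to 0.76 for CENPN (log2), with a median of 0.39, so that the widest range was 1.70-fold. Of the 4114 named genes well above background on all arrays, 17.2% had a range of at least 2-fold, with a median range of 0.54 (log2). The genes were also divided by mean level into 4 signal classes of near equal size. In the highest class, which held 19 of the 32 mitosis genes, 4.1% of all genes had a range of at least 2-fold. The lowest class held 0 of the 32.

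**Figure D1:**
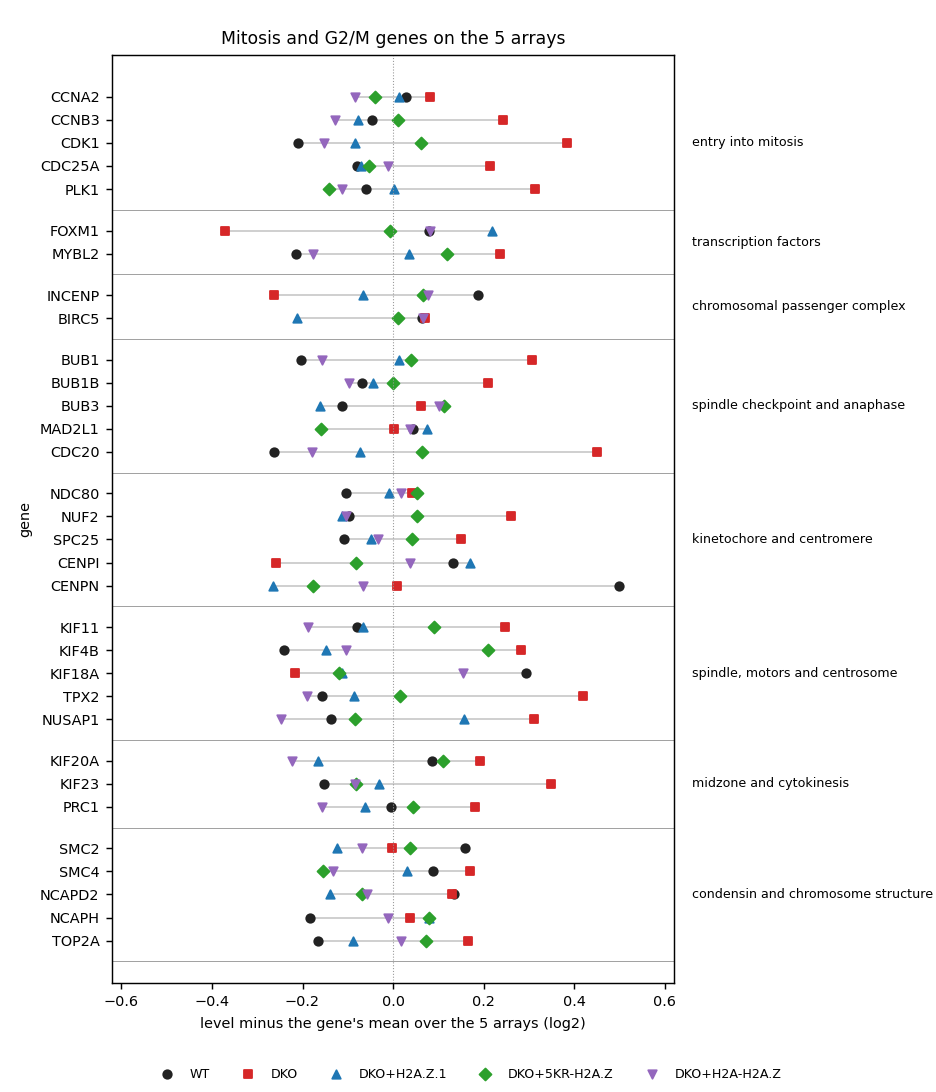
Levels of the 32 measured genes on the 5 arrays, in order of role, each as the log2 level minus the mean of the same gene over the 5 arrays. Each point is 1 array and the grey line spans the 5 values. The widest span, 0.76, is that of CENPN, with WT at its upper end, and no span reaches 1.

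Of the 6 comparisons, DKO minus WT held the most genes apart: 673 of 4400 genes (15.3%) stood at least 2-fold apart, 4.2% higher and 11.1% lower in DKO. Here 0 of the 32 mitosis and G2/M genes were 2-fold apart, against 2.76% of the genes in the highest signal class. The lowest difference was -0.51 (KIF18A, a kinesin that damps chromosome movements at the metaphase plate) and the highest 0.71 (CDC20, the activator of the anaphase-promoting complex), on the log2 scale. Between their quartiles the 32 differences ran from 0.00 to 0.39, against -0.30 to 0.43 over all genes. At a threshold of 1.5-fold, CDC20 and CDK1 were higher in DKO and no gene of the list was lower, while 14.1% of all genes were higher and 17.2% lower. These calls followed the setting. CDK1 was under 1.5-fold with normexp (0.57), the median over probes (0.56), the authors' table (0.40), quantile normalization (0.30) and spike-in scaling (0.098), and CDC20 with the last 3 of these (0.52, 0.37 and 0.22). After spike-in scaling no gene was past 1.5-fold higher, and KIF18A, CENPN, INCENP, FOXM1, CENPI and SMC2 were past it on the lower side, at -1.01 to -0.66. In the authors' table KIF18A (-0.70), CENPN (-0.68), INCENP (-0.64) and FOXM1 (-0.64) were past it on the lower side, as was INCENP (-0.61) with quantile normalization. Other settings added genes on the higher side. These include TPX2 (0.76), KIF23 (0.68) and MYBL2 (0.63) with centring on the array median, and PRC1 (0.68) with the median over probes.

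The median difference of all genes was 0.15 for DKO minus WT, and that of the 32 genes was 0.24. These medians follow the scaling. After scaling to the 8 spike-in probes they were -0.35 and -0.26, and in the authors' value table -0.04 and 0.05. Differences are therefore also given relative to the median gene, that is, minus the median of all genes in the same comparison, a value that no constant shift of an array can alter. By this measure 19 of the 32 genes lay above the median gene and 13 below it. Through the main setting and 6 alternatives of scaling, background correction and probe choice, 15 of them stayed above and 12 stayed below. Centring on the array median, spike-in scaling and the authors' table only shift each array by a constant, so they could not change these sides. Only quantile normalization, normexp and the median over probes could, and the last leaves the difference of a gene with 1 probe as it was. The unadjusted difference, in contrast, kept its sign through all 7 settings for fewer genes. BUB1, CDC20, CDK1, KIF23, KIF4B and TPX2 (6 genes) were higher in DKO throughout, and FOXM1, INCENP, CENPI, CENPN and KIF18A (5 genes) lower. For every other gene, which of DKO and WT was higher holds for the 75th percentile scale and turned in at least 1 setting. Median differences over all genes also grew with signal, from -0.02 in the lowest class to 0.31 in the highest, where 8 of the 19 mitosis genes lay above the median of their class. FOXM1, CENPI, CENPN and KIF18A, the 4 mitosis genes of the second lowest class, all lay below its median, with a median difference of -0.47 against -0.0032 over that class.

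**Figure D2:**
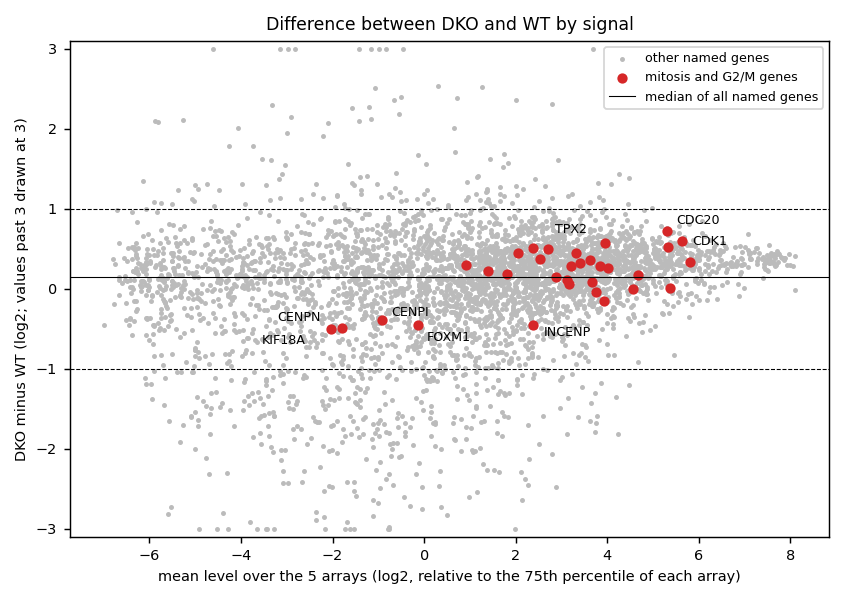
Difference between DKO and WT (log2, vertical) against the mean level over the 5 arrays (log2, horizontal) for the named genes well above background on all arrays, the mitosis and G2/M genes in red. Dashed lines mark 2-fold and the solid line the median of all named genes, 0.15 (-0.35 after spike-in scaling). The red points all lie between the dashed lines, with CDC20 at 0.71 and KIF18A at -0.51 as their outer ends.

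Among the regulators of mitotic entry, 5 of 9 were read. CDK1 (NM_205314), the kinase that drives entry into mitosis, had log2 levels of 5.42 in WT, 6.01 in DKO, 5.54 in the H2A.Z.1 line, 5.69 in the 5KR-H2A.Z line and 5.48 in the H2A-H2A.Z line. The DKO level was the highest on this scale. That of WT was the lowest on the probe read, but on the second probe of CDK1 the H2A-H2A.Z line (4.07) was below WT (4.10). This second probe gave a DKO minus WT difference of 0.53 beside 0.60. Relative to the median gene the difference was 0.44, and at least 0.26 under every setting. CCNA2 (NM_205244), cyclin A, which works in S phase and early mitosis, had levels of 3.20, 3.25, 3.18, 3.13 and 3.09 in the same order of lines. Its range of 0.17 was the smallest of this role, so CDK1 and cyclin A, which form a complex, did not differ alike between DKO and WT (0.60 and 0.05). PLK1, the Polo kinase of mitotic entry and spindle assembly, had levels from 2.38 in the 5KR-H2A.Z line to 2.84 in DKO. CCNB3, a B-type cyclin, ranged from 3.72 in the H2A-H2A.Z line to 4.09 in DKO on the level scale.

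CDC25A, the phosphatase that activates CDK complexes, was read from its dimmer probe, with levels of 0.84 in WT and 1.13 in DKO. Its brighter probe was marked as an outlier on the H2A-H2A.Z line's array and left out. On the other 4 arrays that probe gave a DKO minus WT difference of 0.51, against 0.29 on the probe used. CCNB2 itself had no probe named by this rule. The accession that older annotation calls CCNB2 (NM_001004369) is named CCNB1 in the gene table, and this cyclin B had levels of 5.25, 5.67, 5.36, 5.48 and 5.25 in the order of lines above, 0.42 higher in DKO than in WT on that scale.

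The 2 transcription factors of the programme stood on opposite sides of the median gene in DKO. FOXM1 (NM_001012955) had log2 levels of -0.05 in WT, -0.50 in DKO, 0.09 in the H2A.Z.1 line, -0.14 in the 5KR-H2A.Z line and -0.05 in the H2A-H2A.Z line. On the probe read, DKO was the low array and the other 4 lay within 0.23 of one another. Its DKO minus WT difference was -0.45, with the 4 probes between -0.60 and -0.01, so that 1 probe showed almost none of it. On that probe the H2A-H2A.Z line (-2.415) was below DKO (-2.361). Relative to the median gene the DKO minus WT difference of FOXM1 was -0.60, and -0.60 to -0.45 over the settings. Between the H2A.Z.1 line and DKO, FOXM1 differed by 0.59 in log2 terms, the only one of the 32 past 1.5-fold there (13.9% of all genes were higher by that much), with its probes between 0.24 and 0.67. Over the settings that difference ran from 0.42 to 1.14, and it was under 1.5-fold with normexp (0.51), quantile normalization (0.56), median centring (0.44) and the median over probes (0.42). MYBL2 (NM_205318) had levels of 3.096, 3.55, 3.34, 3.43 and 3.13 in the same order of lines. It was 0.45 higher in DKO than in WT, and its 3 probes gave 0.39 to 0.51.

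Of the chromosomal passenger complex, which corrects faulty kinetochore attachments and acts at the midzone in cytokinesis, INCENP and BIRC5 were read and AURKB was not. INCENP (NM_205330), the scaffold, had levels of 2.57 in WT, 2.12 in DKO, 2.32 in the H2A.Z.1 line, 2.45 in the 5KR-H2A.Z line and 2.46 in the H2A-H2A.Z line. WT was high and DKO low. The DKO minus WT difference of -0.45, on 1 probe, was -0.60 relative to the median gene. BIRC5 (NM_001012319), survivin, had levels of 5.44, 5.45, 5.16, 5.39 and 5.44 in that order. On this scale and probe the H2A.Z.1 line was the array apart and WT and DKO differed by 0.01. DKO minus WT was -0.49 after spike-in scaling and -0.30 with quantile normalization. The H2A.Z.1 line minus DKO was then 0.27 and 0.10. On 1 other probe the 5KR-H2A.Z line (4.37) and the H2A-H2A.Z line (4.55) lay below the H2A.Z.1 line (4.59). One probe of BIRC5 was printed in 5 spots, whose SD within an array was 0.046 to 0.087 (log2). Its 4 probes disagreed on the difference between the 5KR-H2A.Z line and the H2A.Z.1 line, from -0.21 to 0.22.

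The spindle checkpoint holds CDC20 back until every kinetochore is attached. CDC20 (NM_001006536) had levels of 5.04 in WT, 5.75 in DKO, 5.23 in the H2A.Z.1 line, 5.37 in the 5KR-H2A.Z line and 5.12 in the H2A-H2A.Z line. On this scale DKO was the high array, and the 3 probes put it 0.61 to 0.71 above WT. After spike-in scaling the H2A.Z.1 line was 0.03 above DKO. Relative to the median gene the difference was 0.56, the largest of the 32 on the upper side, and 0.33 to 0.56 over the settings. Of the checkpoint proteins themselves, BUB1, a kinase of the outer kinetochore, had levels of 2.18 in WT and 2.69 in DKO (0.36 above the median gene). BUB1B, which encodes the CDC20 inhibitor BubR1, had 3.14 and 3.42 on the level scale. BUB3, their shared WD-repeat partner, had 4.55 and 4.72. MAD2L1 (NM_001277749), the Mad2 protein that binds CDC20, had levels of 3.81, 3.76, 3.84, 3.60 and 3.80 in the usual order of lines, with the 5KR-H2A.Z line lowest and the smallest range of this role, 0.23. CDC20 therefore differed between DKO and WT by 0.71 where its inhibitor MAD2L1 differed by -0.04, each on the log2 scale.

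At the kinetochore, 3 of the 4 subunits of the Ndc80 complex, which ties microtubules to the chromosome, were read. NDC80 (NM_204477) had levels of 2.79 in WT, 2.93 in DKO, 2.88 in the H2A.Z.1 line, 2.94 in the 5KR-H2A.Z line and 2.91 in the H2A-H2A.Z line, the smallest range of all 32. Its 2 probes differed in sign for DKO minus WT, at 0.15 and -0.14. NUF2 and SPC25, partners in the same complex, were 0.36 and 0.26 higher in DKO than in WT, and both probes of each gave values above 0 (for SPC25, 0.12 to 0.26). Relative to the median gene they were 0.21 and 0.11, and SPC25 ran from -0.03 to 0.11 over the settings. Relative to the median of their own signal class, the highest, they were 0.05 and -0.05.

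CENPI and CENPN, the subunits of the inner, constitutive centromere network among the 32 genes, were lower in DKO than in WT. CENPI (NM_204532) had levels of -0.78 in WT, -1.17 in DKO, -0.75 in the H2A.Z.1 line, -0.999 in the 5KR-H2A.Z line and -0.88 in the H2A-H2A.Z line. DKO was lowest, with a DKO minus WT difference of -0.39 on the probe read and -0.60 on the other. CENPN (NM_001044670), which in human cells binds the centromeric nucleosome, had levels of -1.30, -1.79, -2.06, -1.97 and -1.86 in the same order. WT stood apart from the other 4 lines, which lay within 0.27 of one another. On the 75th percentile scale, the largest difference of any of the 32 genes in the 6 comparisons was that of CENPN in the H2A.Z.1 line minus WT, -0.76 on 1 probe, and -0.76 to -0.59 over the settings. In that comparison 5.85% of all genes were at least 2-fold apart and 8.58% at least 1.5-fold lower. CENPN was the only one of the 32 past 1.5-fold. Relative to the median gene its difference was -0.73, and that of FOXM1 in the H2A.Z.1 line minus DKO was larger in size, at 0.80.

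Among spindle motors and spindle proteins, 5 of 10 were read. TPX2 (NM_204437), the activator of Aurora A on spindle microtubules, had levels of 3.80 in WT, 4.37 in DKO, 3.87 in the H2A.Z.1 line, 3.97 in the 5KR-H2A.Z line and 3.77 in the H2A-H2A.Z line. On this scale DKO was the high array, 0.58 above WT and 0.43 relative to the median gene, on 1 probe. After spike-in scaling the H2A.Z.1 line was 0.04 above DKO. KIF11 (NM_001031230), the kinesin that pushes spindle poles apart, had levels of 3.33, 3.66, 3.34, 3.50 and 3.22 in that order, the smallest range of this role. KIF4B, a chromokinesin whose gene record also carries the older name KIF4A, was 0.52 higher in DKO than in WT, with 5 probes between 0.33 and 0.62. KIF18A (NM_001199426) went the other way, with levels of -1.75, -2.26, -2.16, -2.16 and -1.89. On this scale and its 1 probe, WT and the H2A-H2A.Z line were its high arrays and DKO its lowest. DKO minus WT was -0.66 relative to the median gene. The H2A.Z.1 line was 0.10 above DKO, but their difference was -0.04 with median centring and -0.0011 with quantile normalization. NUSAP1, which bundles spindle microtubules, was higher in DKO (2.35) than in WT (1.90) on the level scale, and its level of 1.79 in the H2A-H2A.Z line differed by -0.40 from that in the H2A.Z.1 line, across slides. That last difference rested on 1 probe and ran from -0.46 to -0.09 over the settings.

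**Figure D3:**
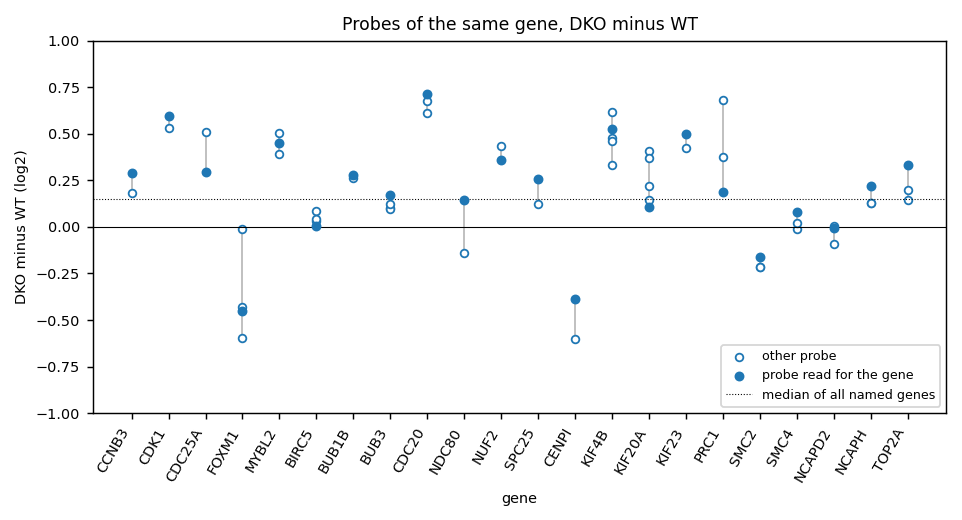
Difference between DKO and WT (log2) on every probe of the 22 genes with more than 1 probe, the probe read for the gene filled and the others open. The dotted line marks the median of all named genes, 0.15. All 3 probes of CDC20 lie above 0.6, both of CENPI lie below -0.3, and FOXM1 and PRC1 show the widest disagreement.

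Repeated probes of a gene read the same RNA on the same array. Their spread therefore leaves out the differences between cultures and any technical error that all probes of an array share. For DKO minus WT, 22 of the 32 genes had more than 1 probe, and the median SD between probes of a gene was 0.056 (log2), where the scanner software's error of a difference was 0.20. For 10 of them all probes lay above the median gene and for 7 all lay below it. FOXM1 had the widest spread between probes, 0.58. For KIF20A, a kinesin of the midzone, the brightest of 5 probes gave 0.10 and the others up to 0.41.

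Midzone and cytokinesis genes were read in 3 of 6 cases. KIF23 (NM_001030554), the kinesin subunit of centralspindlin, had levels of 2.54 in WT, 3.05 in DKO, 2.66 in the H2A.Z.1 line, 2.62 in the 5KR-H2A.Z line and 2.61 in the H2A-H2A.Z line. On this scale DKO stood apart and the other 4 lay within 0.12 of one another. After spike-in scaling DKO was 0.0031 above WT, and the H2A.Z.1 line was 0.17 above DKO. PRC1 (NM_001079753), which crosslinks antiparallel microtubules, had levels of 1.81, 2.00, 1.75, 1.86 and 1.66 in that order, the smallest range of this role at 0.34. Its other 2 probes put DKO 0.38 and 0.68 above WT, against 0.19 on the probe read.

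Condensin and topoisomerase II, which compact and untangle the chromosomes, had ranges of 0.26 to 0.33 (log2) over the 5 arrays. TOP2A (NM_204791) had levels of 5.64 in WT, 5.97 in DKO, 5.72 in the H2A.Z.1 line, 5.88 in the 5KR-H2A.Z line and 5.82 in the H2A-H2A.Z line. SMC2, an ATPase subunit shared by both condensins, was lower in DKO than in WT on all 3 probes (-0.21 to -0.16, and -0.31 relative to the median gene). SMC4, its partner, and NCAPD2, a subunit of condensin I, differed by 0.08 and -0.01. NCAPH (NM_001257332), the kleisin of condensin I, had levels of 1.22, 1.44, 1.48, 1.48 and 1.39 in the order of lines. WT was the low array on this scale and probe, but DKO minus WT was -0.28 after spike-in scaling. On 1 other probe the H2A-H2A.Z line (-0.81) was below WT (-0.75).

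In the H2A.Z.1 line minus DKO, 10.7% of 4334 genes were at least 2-fold apart and 0 of the 32. The 32 differences ran from -0.52 for CDC20 to 0.59 for FOXM1, with a median of -0.25 against -0.21 over all genes. In the highest signal class 1.25% of genes were 2-fold apart here, and 0.624% in the H2A.Z.1 line minus WT. This comparison and DKO minus WT share the DKO array. In the H2A.Z.1 line minus WT, which does not use that array, the count was again 0 of 32, with values from -0.76 for CENPN to 0.29 for NUSAP1 and quartiles of -0.06 and 0.10 on the log2 scale, against -0.21 and 0.12 over all genes. CDK1, CDC20 and TPX2 differed there by 0.13, 0.19 and 0.07, INCENP by -0.26 and BIRC5 by -0.28.

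The mutant lines were compared with the H2A.Z.1 line and with each other. In the 5KR-H2A.Z line against the H2A.Z.1 line, across slides, 2.65% of 4336 genes were at least 2-fold apart and 0 of the 32, which ran from -0.25 for CENPI to 0.36 for KIF4B. In the highest signal class 0 of 1122 genes were 2-fold apart in this comparison, and 0.178% in each of the 2 that follow. The value of KIF4B rested on its probe, since its 5 probes spanned -0.20 to 0.36. In the H2A-H2A.Z line against the H2A.Z.1 line, also across slides, the shares were 2.87% of 4363 genes and 0 of the 32, from -0.40 for NUSAP1 to 0.28 for BIRC5. Over the settings NUSAP1 ran from -0.46 to -0.09 and BIRC5 from 0.07 to 0.28. The 4 probes of BIRC5 spanned -0.04 to 0.28, the widest spread among the genes with more than 1 probe. Of the 32, 22 lay below the median gene in that comparison, and the median of the 32 was -0.10 relative to it.

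Within 1 slide, the 5KR-H2A.Z line against the H2A-H2A.Z line had 3.76% of 4357 genes at least 2-fold apart and 0 of the 32. Values ran from -0.27 for KIF18A to 0.33 for KIF20A. MYBL2, CDC20 and CDK1 were 0.30, 0.24 and 0.21 higher in the 5KR-H2A.Z line on the log2 scale, with their probes between 0.15 and 0.39, but that of CDK1 was -0.02 after spike-in scaling, where the median of all genes was -0.19 in place of 0.05. The differences of these 3 genes relative to the median gene were 0.25, 0.20 and 0.17, and stayed above 0 under every setting.

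**Figure D4:**
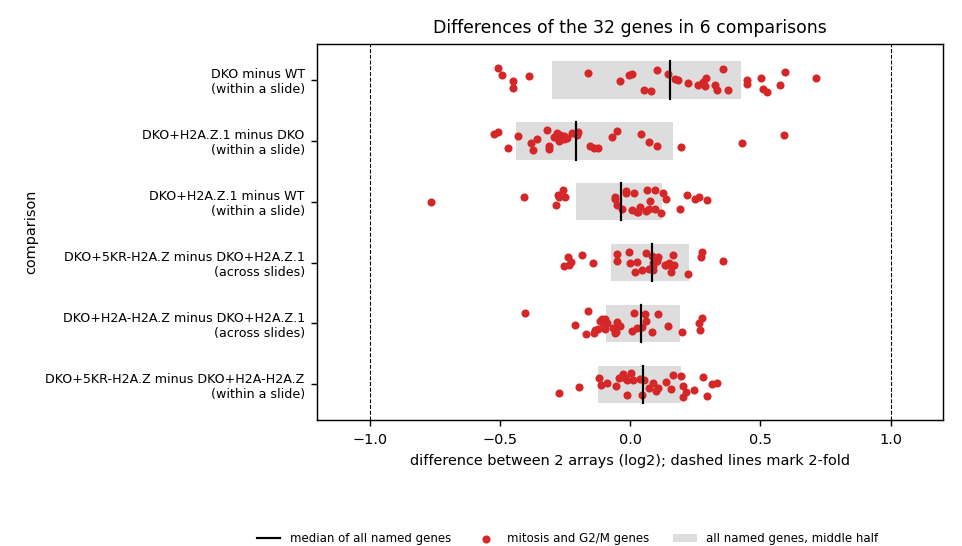
Differences of the 32 mitosis and G2/M genes (red points, log2) in the 6 comparisons, with the interquartile range of all named genes as a grey bar and their median as a black line. Dashed lines mark 2-fold, and no red point reaches them in any comparison.

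A further 109 genes of mitosis that are not among the 53 were listed, of which 52 had a named probe. For DKO minus WT their median difference was 0.16, against 0.15 over all genes, with 1 gene at least 2-fold higher and 2 lower, beside 4.2% and 11.1% of all genes. NUMA1, which anchors dynein at the spindle poles, was 2.19-fold higher in DKO than in WT on both probes, at log2 levels of -2.35 and -3.48, and past 2-fold in 3 of 6 alternatives. MAD2L2, a partner of translesion polymerases and of shieldin that also bears on mitotic exit, was 2.11-fold lower (levels of 0.13 and 1.21). CENPS, a histone-fold protein of the centromere and of the Fanconi anaemia pathway, was 2.16-fold lower (levels of 1.76 and 2.87). Both probes of MAD2L2 and of CENPS passed 2-fold, and each gene did so in 5 of 6 alternatives. The levels of the H2A.Z.1 line were 1.11 for MAD2L2 and 2.39 for CENPS. NUMA1 also differed by -1.04 between the H2A.Z.1 line and DKO, but its other probe gave -0.95 and only 2 of 6 alternatives had it past 2-fold. CENPK, a neighbour of CENPI in the inner kinetochore, was 2.64-fold higher in the 5KR-H2A.Z line than in the H2A.Z.1 line on its 1 probe, across slides and at a low level (-4.29 and -5.69), and under 2-fold with normexp. The H2A-H2A.Z line, on the slide of the 5KR-H2A.Z line, was also higher than the H2A.Z.1 line, by 0.99 at a level of -4.70. WT had a CENPK level of -5.10.

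The 56 listed genes of G1/S and DNA replication, not all of which have transcripts that peak at that stage, offered a comparison, with 32 read. Their median for DKO minus WT was -0.01 where that of the mitosis and G2/M genes was 0.24 and that of all genes 0.15. Relative to genes of the same signal class, the median of the mitosis and G2/M genes was -0.0099. The same value was not computed for the G1/S and DNA replication genes, so the medians of the lists are not matched for signal. ORC3, a subunit of the origin recognition complex, was the single G1/S and DNA replication gene 2-fold apart, 2.40-fold lower in DKO than in WT. It was past 2-fold on all 3 probes and was named after its value was seen, where 11.1% of all genes were 2-fold lower. No test of the difference between the lists was made, since each line was 1 array.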

How the data were processed

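Scanner files from Agilent Feature Extraction 11.5.1.1 gave, per the file headers, a processed signal (an intensity on a linear scale, background-subtracted by that software), its error, and median spot and background intensities. Outlier-marked spots (2 to 37 per array) were left out, log2 was taken of processed signals, minus the 75th percentile of the array's non-control spots, and spots of a probe were averaged. The authors' deposited value table holds an intensity that equals the processed signal times 1 constant per array (1.03 to 1.23). Probes were named through RefSeq accessions matched, without version, to a gene table of assembly GRCg7b (11935 probes). The files' annotation is galGal3, so no coordinates are given, and no sequences were used. A gene was read from its brightest probe measured on all arrays, and entered a comparison if 1 or both arrays had it well above background. Signal classes divide the genes by mean level. By rule, values on all arrays are given for genes 2-fold apart in a comparison (none was) and for the genes with the widest and narrowest range in each role, and other mitosis genes 2-fold apart are named. CENPI, KIF18A and CCNB1 were given in full after their values were seen. The members and lists were chosen with earlier results of these data known. The steps were tested on simulated data. Calculations used Python 3.11.15, numpy 2.4.6, pandas 2.3.3 and limma 3.58.1. With 1 array per line no test was possible, and the number of arrays limits the precision.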

Additional observations from a re-analysis of the deposited data

How the results depend on the processing

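The alternatives were quantile normalization, normexp (offset 50), centring on the array median, spike-in scaling, a stricter filter on dim probes and none, the authors' value table, the median over probes and a threshold of 1.5-fold. Normexp was run on median spot signals, since the files used hold no mean spot signal. The count of 0 among the 32 genes held in 49 of 54 cases. These include the 2 changes of the filter on dim probes, which could not alter it because all 32 were well above background on all arrays. With spike-in scaling it was 1 for DKO minus WT (KIF18A, -1.01) and 1 for the H2A.Z.1 line minus DKO (FOXM1, 1.14). At 1.5-fold it was 2 for DKO minus WT, 1 for the H2A.Z.1 line minus DKO and 1 for the H2A.Z.1 line minus WT. The median of the 32 relative to all genes moved by more than the SD between probes in 5 of 54 cases. Median centring, spike-in scaling and the authors' table shift each array by a constant and so could not move it, which makes 54 overstate the check. For DKO minus WT it was 0.089, but 0.0038 with quantile normalization and -0.0099 relative to genes of the same signal class, a setting added after the data were seen. For the H2A.Z.1 line minus DKO it was -0.047, but 0.044 and 0.082 in the same settings, and 0.028 with the median over probes. Of 648 differences of selected single genes under an alternative, 272 moved by more than the SD between probes. In a comparison, median centring, spike-in scaling and the authors' table move every gene by the same constant. The 272 are therefore not separate moves. The cause of the other moves was not tested. Counts over all genes at 2-fold moved more. For DKO minus WT they were 185 higher and 488 lower, 112 and 265 with normexp, 291 and 402 with median centring, 79 and 838 with spike-in scaling and 123 and 605 in the authors' table. For the H2A.Z.1 line minus DKO they were 351 and 114, 197 and 43 with normexp, 278 and 171 with median centring, 723 and 37 with spike-in scaling, 476 and 57 in the authors' table and 382 and 220 with no filter. For the H2A.Z.1 line minus WT, 85 and 173 became 40 and 57 with normexp, 49 and 96 with the stricter filter and 121 and 270 with none. For the 5KR-H2A.Z line and the H2A-H2A.Z line, each against the H2A.Z.1 line, 81 and 34, and 77 and 48, became 14 and 3, and 20 and 15, with normexp, 47 and 10, and 36 and 25, with the stricter filter, and 169 and 59, and 162 and 77, with none. The first of these was 51 and 70 with spike-in scaling. Between the mutant lines, 70 and 94 became 25 and 20 with normexp, 50 and 147 with spike-in scaling, 43 and 50 with the stricter filter and 145 and 146 with none. No replicate could be left out. No paired analysis was possible because each line was 1 array.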

Other observations

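On the probe read for each gene, CDK1, CDC20, BUB1 and MYBL2 shared 1 order of the 5 arrays. It ran from WT at the lowest level through the H2A-H2A.Z line, the H2A.Z.1 line and the 5KR-H2A.Z line to DKO. The second probe of CDK1, 1 other probe of CDC20 and the other probes of MYBL2 broke it, with the H2A-H2A.Z line below WT. This order was noticed after the values were seen and spans both slides. It held for 4 of the 32 genes and for 6.66% of the 4114 named genes well above background on all arrays, and for 8.91% of those in the highest of 4 signal classes. It followed the scaling, with 0 of the 32 after spike-in scaling (0.632% of all genes) and 3 in the authors' value table (4.55%), CDK1 and CDC20 among them. With quantile normalization it held for 2 of the 32 (5.37% of all genes), CDK1 and NUF2. Normexp gave 5 of the 32 (4.98%) and median centring 6 (8.56%). Steps in the order can be small. BUB1 differed by 0.03 between the 5KR-H2A.Z line and the H2A.Z.1 line, where the scanner software's error of a difference was 0.20. DKO was the highest of the 5 arrays for 21 of the 32 genes, against 48.0% of all genes and 73.4% of those in the highest of 4 signal classes. After spike-in scaling DKO was the highest for 0 and the lowest for 23 of the 32, against 7.44% and 65.2% of all genes.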
